A study of Mus musculus with 21 samples.

Results

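Wild-type (WT) Myc-CaP tumours grown in mice were compared with the WT Myc-CaP cells from which they were grown, gene by gene, by RNA-seq. Of the 21 libraries of the series 6 belonged to the comparison: 2 of cultured WT cells and 4 of WT tumours. Myc-CaP is a prostate cancer line taken from a tumour of an FVB mouse that carried a MYC transgene driven by a probasin-based promoter in the prostate epithelium, so all groups share that transgene. The WT cells were parental Myc-CaP cells, intact for Ern1, grown in DMEM with 10% fetal bovine serum, and the WT tumours grew from such cells in FVB mice. The labels give neither the age of the mice nor the graft site or the time of growth. The other 15 libraries came from 3 lines, KO1 to KO3, in which Ern1 was knocked out (KO) with Cas9 and 1 guide RNA; Ern1 encodes IRE1α, a sensor of stress in the endoplasmic reticulum (ER). Each line gave 2 cell and 3 tumour libraries, used here to repeat the comparison. Whether libraries of a group stem from separate cultures or animals is not labelled, and WT is 1 line, so a p-value speaks for the spread between libraries, which may be technical. Tumours 3 and 4 of WT carry the same number 5 in their descriptions and may come from 1 mouse.

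A tumour grown from a cell line differs from its culture in more than one respect. Host blood vessels, fibroblasts and immune cells grow into it and bring their own RNA, while the cancer cells leave stiff plastic, serum and rich medium for a soft, vascularised tissue. Stiffness and spreading are known to act on YAP, TEAD and SRF, amino acid supply on ATF4, ER load on ATF6 and XBP1s, and interferons on the IRF factors. The host and the line are of the same species, so that reads do not tell them apart.

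Genes were therefore split by their level in WT cells, in CPM, the counts scaled to a common library size. Of the 45706 genes deposited, 31865 were under 0.1 CPM in both WT cell libraries and are called silent in culture here. At the other end 9346 genes had 5 CPM or more in both, and 4495 lay between. At the lower threshold Ccdc166 was just inside, at 0.0988 CPM in its higher cell library, and Hist1h3g just outside, at 0.101 CPM. At the upper threshold Siglecg was just inside, at 5.02 CPM in its lower cell library, and Zscan22 just outside, at 4.99 CPM.

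In all, 14031 genes had enough counts to be tested. By edgeR with Benjamini-Hochberg adjustment, 4176 were higher in WT tumours than in WT cells (29.8% of those tested) and 2983 were lower (21.3%), at an adjusted p under 0.05. Of the genes expressed in the cells, all 9346 were tested, and 1683 rose (18.0%) while 2743 fell (29.3%). A rise of 2-fold or more was seen for 461 of them and a fall of that size for 1074. The median log2 change was -0.10 over the genes expressed in the cells and 0.13 over all tested genes. With 2 cell libraries the calls rest on both of them: without WT cells replicate 1 the rises and falls among expressed genes numbered 738 and 1396, and without replicate 2 they numbered 701 and 1359. When the libraries were scaled over the genes expressed in the cells alone, the median change of all tested genes moved by 0.13, and 2273 expressed genes rose and 2185 fell, so that 51.0% of calls were rises rather than 38.0%. Changes smaller than that shift have no fixed direction here.

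**Figure D1:**
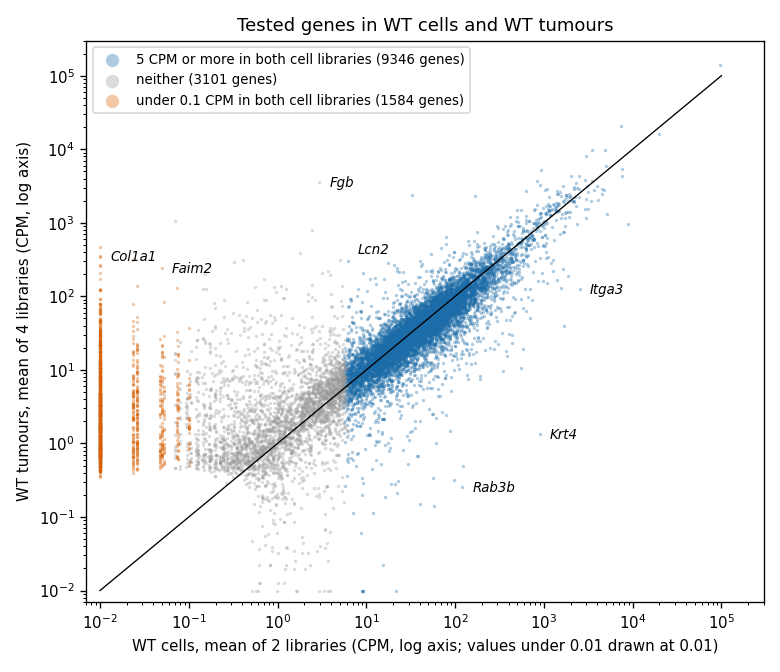
Mean level of each tested gene in the 2 WT cell libraries (horizontal, CPM, log axis) and the 4 WT tumour libraries (vertical, CPM, log axis), coloured by its level in the cells; the line marks equal levels. The 1584 tested silent genes stand at the left edge, and Krt4 and Rab3b lie far below the line.

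Library totals ran from 16613959 to 27164051 counts in the 6 libraries. Yam1, a locus that overlaps ribosomal RNA, together with Rn18s-rs5, took 24.0% of the counts of WT tumour 4 and 7.78% to 8.30% of those of the other WT tumours. WT tumour 1 stood apart in another way, with the highest level of most host markers. As the libraries are bulk RNA, fewer cells of a type and less RNA per cell cannot be told apart.

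The prostate label was checked first against defining markers. Hoxb13, a transcription factor of prostate identity, was at 34.2 and 34.9 CPM in WT cells and at 18.3, 14.9, 18.5 and 21.9 CPM in WT tumours 1 to 4. It fell by 0.89 ± 0.17 on the log2 scale (SE), with every tumour below both cell libraries (edgeR adjusted p = 0.00486), but did not pass without WT cells replicate 2. Foxa1, another factor of prostate epithelium, was at 152 and 148 CPM in WT cells and at 86.2, 120.4, 105.2 and 111.3 CPM in the tumours. It fell by 0.48 (edgeR adjusted p = 0.0358), a call lost without either cell library, without tumour 3 or with scaling over expressed genes. Hoxb13 and Foxa1 were chosen after their values were seen. Other defining markers were absent or close to 0: Pbsn and Cldn7 had 0 counts in all 6 libraries, Epcam had 0 counts in the cells and at most 0.239 CPM in the tumours, and Krt18 and Cdh1 were at most 0.201 and 0.705 CPM in the tumours. Of 29 epithelial differentiation and junction genes, 13 were expressed in the cells, and of these 3 rose and 7 fell. Over all expressed genes 18.0% rose and 29.3% fell. Of the 10 prostate epithelium markers expressed in the cells 7 fell and 2 rose, against the same shares. Without WT cells replicate 1 these counts were 4 and 1, and without replicate 2 they were 3 and 1.

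Keratins changed in both directions. Krt4, a keratin of stratified epithelium (ENSMUSG00000059668, chromosome 15, 101918535 to 101924735 in GRCm38), showed the largest fall among the named genes that the cells expressed. It was at 923 and 878 CPM in WT cells and at 1.46, 1.33, 1.25 and 1.33 CPM in WT tumours 1 to 4, a log2 change of -9.37 ± 0.12 (SE; edgeR adjusted p = 2.74e-07). The 4 tumours lay within a narrow range, and in the KO tumours Krt4 was between 0.679 and 4.65 CPM. Krt15, a keratin of basal cells, and Krt19, of simple epithelium, fell by 4.09 and 4.43 on the log2 scale. Krt8, a keratin of luminal cells, went the other way, from 21.9 and 23.2 CPM to 202, 121, 141 and 107 CPM, a log2 change of 2.67 ± 0.27 (SE; edgeR adjusted p = 0.00034). Krt7, chosen after its values were seen, rose by 2.86. Ehf, an epithelial transcription factor, rose from 2.20 and 2.15 CPM to between 92.7 and 121 CPM.

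Genes silent in culture were examined next. Of the 31865, 749 had at least 1 CPM in all 4 WT tumours, and 717 of these were protein-coding by GENCODE. Their direction is fixed by the rule, so their levels are a description. Together the silent genes made up 2.47%, 0.980%, 0.988% and 0.556% of the counts of WT tumours 1 to 4, against 0.00939% and 0.0101% in the cells. Most counts of a tumour, 94.5% to 98.0%, were thus in genes that the cultured cells expressed.

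Of the 749 silent genes, 67 were on a list of host cell type markers and 682 were on none. The 19 macrophage and monocyte markers summed to 1457, 695, 728 and 451 CPM in WT tumours 1 to 4 and to 20.1 and 18.7 CPM in the cells. Csf1r, the receptor that macrophages need for survival, had 0 counts in both cell libraries and was at 53.4, 32.6, 28.2 and 19.0 CPM in the tumours. C1qa, C1qb and C1qc, the complement subunits that tissue macrophages make, had 0 counts in the cells and at least 44.5 CPM in every tumour. Pan-leukocyte markers summed to 540, 301, 271 and 206 CPM, and Ptprc, the leukocyte phosphatase CD45, was at 35.3, 13.7, 15.4 and 10.1 CPM after 0 counts in the cells. Lyz2, a lysozyme of myeloid cells, was at 533, 274, 303 and 151 CPM. Of the 19 macrophage markers 18 were highest in tumour 1 and lowest in tumour 4.

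Lymphocyte markers were detected at low levels. T cell markers, 15 in number, summed to 7.80, 7.14, 6.74 and 3.84 CPM, and 3 of them passed the filter. Cd3e, a subunit of the T cell receptor complex, was between 0.119 and 0.302 CPM in the tumours, where 3 counts correspond to 0.110 to 0.181 CPM. NK and cytotoxic markers summed to at most 7.95 CPM and B and plasma cell markers to 8.38 to 21.5 CPM. Jchain, which joins secreted antibody chains, was at 7.39, 11.7, 12.9 and 6.11 CPM. The highest sum of a lymphocyte list in any WT tumour was thus 21.5 CPM.

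Vessel and stroma markers were present in all 4 tumours. Endothelial markers summed to 488, 353, 299 and 236 CPM, and Cdh5, the cadherin of endothelial junctions, was at 48.5, 36.4, 27.6 and 29.7 CPM after 0 counts in the cells. Rgs5, a gene of pericytes, was at 64.5, 45.7, 32.3 and 50.9 CPM. Col1a1, the main chain of fibrillar collagen (ENSMUSG00000001506, chromosome 11, 94936224 to 94953042 in GRCm38), had 0 counts in the cells and was at 585, 363, 290 and 155 CPM in the tumours. That is at least 4874-fold higher, on plain CPM and against a floor of 3 counts over both cell libraries, a bound that covers counting error only. All 20 fibroblast and matrix markers were highest in tumour 1 and lowest in tumour 4.

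Some markers belonged to 1 tumour. Myh4, a myosin of fast skeletal muscle (ENSMUSG00000057003, chromosome 11, 67238029 to 67260446 in GRCm38), was at 1031 CPM in WT tumour 1, at 6.80 CPM in tumour 3 and at 0 in tumours 2 and 4. Ckm, the muscle creatine kinase, was at 825 CPM in tumour 1 and at most 5.61 CPM elsewhere. The 16 skeletal muscle markers summed to 6178, 306, 333 and 212 CPM. S100a9, a neutrophil protein, was at 116, 0.976, 1.37 and 0.392 CPM, and Adipoq, the adipocyte hormone, at 40.9, 3.63, 5.73 and 1.96 CPM. Muscle, neutrophil and fat genes were thus high in tumour 1. For genes silent in culture the rule fixes the low side, so no test against the cells is drawn on here. In that tumour 233 silent genes of at least 1 CPM were 10-fold or more above each other WT tumour, against 1, 3 and 0 in tumours 2 to 4. The single-tumour genes in tumours 2 and 3 included Tex101, a germ cell surface protein, at 13.3 CPM in tumour 2, and Pip, a secreted glandular protein, at 14.8 CPM in tumour 3.

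**Figure D2:**
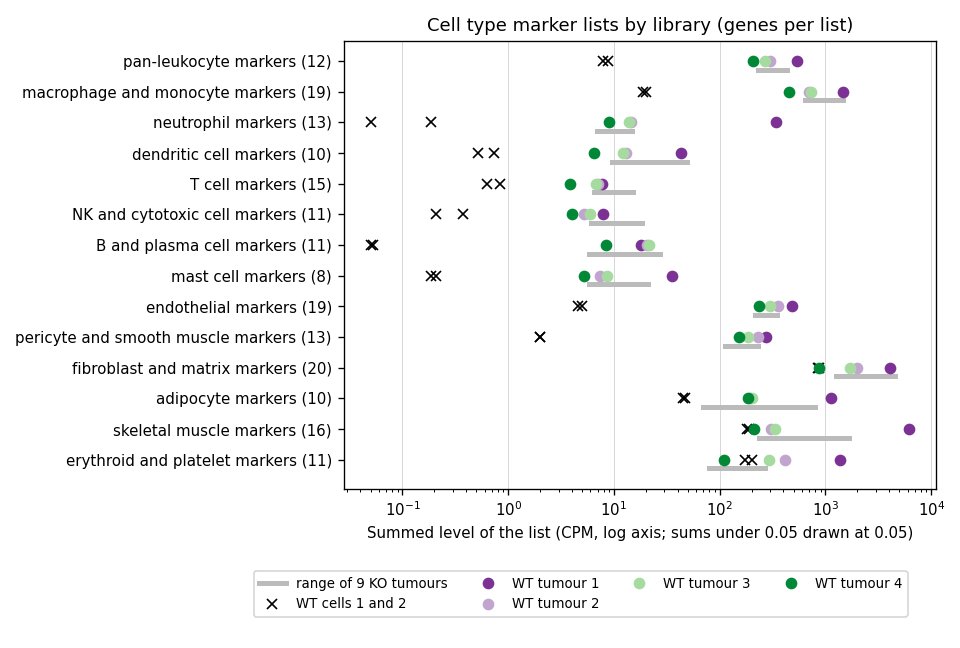
Summed level (CPM, log axis) of 14 cell type marker lists in the 2 WT cell libraries (crosses) and WT tumours 1 to 4 (circles), with the range of the 9 KO tumours as a grey bar. Skeletal muscle, neutrophil and adipocyte sums are far higher in tumour 1 than in tumours 2 to 4, and T cell and NK cell sums are at most 7.95 CPM in all 4.

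Y-linked genes were read next, and whether their RNA came from host cells was not tested. Ddx3y, Eif2s3y, Uty and Kdm5d had 0 counts in both WT cell libraries. In WT tumours 1 to 4 they summed to 46.1, 13.9, 12.4 and 9.48 CPM, a ratio of 4.86 between tumours 1 and 4. Xist, the RNA of the inactive X, was at most 0.507 CPM in any of the 6 libraries. Over all 1584 silent genes that were tested, 54.4% were highest in tumour 1 and lowest in tumour 4. That order held for 14.5% of the genes expressed in the cells and 20.7% of all tested genes. Silent genes could enter the tested set only through their tumour counts, so their share describes a selected set and is no test.

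Whether all silent genes came from host cells was not tested, so they are called silent in culture. Of the 67 on a host cell type list, 7 had a ratio of tumour 1 to tumour 4 under 1.5, as had 165 of the 682 on none. Among the 116 silent genes that had at least 10 CPM in all 4 WT tumours, 35 had such a ratio, a division made after the values were seen. The 35 include genes known from host cells, such as Rgs5 and Pdgfrb of pericytes, Cd93 of endothelium and C3ar1 and Ms4a7 of myeloid cells. Faim2, an inhibitor of Fas-induced death best known from neurons (ENSMUSG00000023011, chromosome 15, 99497012 to 99528165 in GRCm38), was at 0.0469 and 0.0525 CPM in the cells and at 179, 305, 261 and 213 CPM in WT tumours 1 to 4. Il18r1, a receptor chain for interleukin 18, was at 113, 124, 131 and 144 CPM, lowest in tumour 1 and highest in tumour 4. Abo, the blood group glycosyltransferase, was at 65.1, 104, 79.1 and 62.6 CPM, and Igfbp3, which binds insulin-like growth factors, at 65.6, 93.6, 68.9 and 66.6 CPM. Scgb2a2, a secreted protein of glands, and Cym, the protease chymosin, had 0 counts in the cells and at least 58.3 and 30.0 CPM in every tumour. Hapln1, a link protein of matrix, and Otof, the synaptic protein otoferlin, like Faim2 chosen after their values were seen, had 0 counts in the cells and reached 188 and 92.3 CPM. Which cells made them was not tested.

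**Figure D3:**
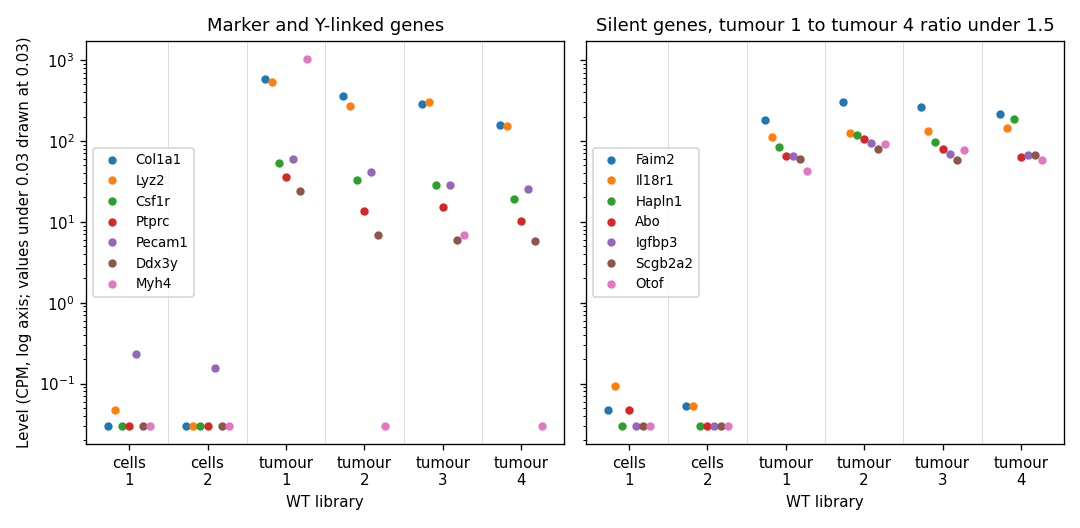
Level (CPM, log axis) of 7 marker and Y-linked genes (left) and 7 silent genes with a tumour 1 to tumour 4 ratio under 1.5 (right) in each WT library, with 1 point a gene. Col1a1 and Ddx3y are highest in tumour 1, Myh4 is near 1031 CPM there alone, and Faim2 stays between 179 and 305 CPM.

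The same genes were then read in the KO libraries. Of the 749, 616 were under 0.1 CPM and 742 under 1 CPM in all 6 KO cell libraries, and 653 had 1 CPM or more in all 9 KO tumours. Faim2 was at 204 to 255 CPM and Il18r1 at 78.8 to 128 CPM in the KO tumours. Otof was at 87.2 to 159.5 CPM there. Muscle genes again varied between tumours, with Myh4 from 0 to 192 CPM.

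Fibrinogen chains and a lipocalin were among the genes between the thresholds that rose most. Fgb, the beta chain of fibrinogen (ENSMUSG00000033831, chromosome 3, 83040141 to 83049863 in GRCm38), was at 2.999 and 2.89 CPM in WT cells and at 4600, 4586, 3221 and 2116 CPM in WT tumours 1 to 4, a log2 change of 10.27 ± 0.51 (SE; edgeR adjusted p = 2.61e-05). Its neighbours Fga and Fgg, the alpha and gamma chains, went from at most 0.577 CPM to 141 to 441 CPM and to 257 to 433 CPM. Lcn11, a lipocalin that carries small lipids, went from 0.141 and 0 CPM to 1570, 746, 1040 and 930.3 CPM. Spink5, a protease inhibitor of epithelia, was at 127, 599.5, 246 and 201 CPM in the tumours and at most 0.420 CPM in the cells. Aldh1l1, a folate enzyme, and Arg2, a mitochondrial arginase, rose to 105 to 160 CPM and 29.4 to 33.5 CPM. Of 24 tested complement and coagulation genes 21 were higher, but 10 of the 25 listed were silent in culture, where 93.4% of all tested genes were higher, and none of the 3 expressed in the cells passed. Of the list 19 were highest in tumour 1 and lowest in tumour 4, as macrophage markers were, whose part was not tested.

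The largest rises among genes that the cells already expressed are given by gene. Lcn2, a lipocalin that binds bacterial iron carriers (ENSMUSG00000026822, chromosome 2, 32384633 to 32388252 in GRCm38), went from 6.65 and 5.72 CPM to 574, 266, 217 and 161 CPM, a log2 change of 5.62 ± 0.62 (SE; edgeR adjusted p = 0.000528). Greb1, known as a target of steroid hormone receptors, went from 9.04 and 9.34 CPM to 165, 204, 257 and 210 CPM, a log2 change of 4.53 ± 0.25. Lcn2 was highest in tumour 1 and lowest in tumour 4, as were 14.5% of the genes expressed in the cells, and Greb1 was not. Which cells made either RNA was not tested. S100a14, a calcium-binding protein, and Abcc2, an exporter of conjugated compounds, rose by 3.99 and 3.87, and Zfp185 went from 10.1 and 12.02 CPM to between 150.4 and 202 CPM. Basement membrane collagens Col4a1 and Col4a2 rose by 3.72 and 3.43, and Col6a3 by 3.77. All 3 collagens were highest in tumour 1 and lowest in tumour 4, as were the fibroblast markers, whose part in these rises was not tested. Stom, a membrane protein, rose by 3.25 and was level, at 92.8, 82.0, 77.3 and 86.2 CPM. Gnmt, which consumes methyl groups on glycine, Cyp2b10, a drug-metabolising enzyme, and Bcl6, a transcriptional repressor, rose by 3.56, 3.46 and 3.53. 5430419D17Rik, a clone name, which the naming rule leaves out, and chosen after its values were seen, went from 31.1 and 33.9 CPM to between 1676 and 3197 CPM.

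Several falls ended close to 0. Rab3b, a GTPase of secretory vesicles (ENSMUSG00000003411, chromosome 4, 108879063 to 108943324 in GRCm38), went from 121 and 119 CPM to 0.151, 0.156, 0.179 and 0.548 CPM, a log2 change of -8.97 ± 0.32 (SE; edgeR adjusted p = 1.13e-05). Mfsd7c, a membrane transporter, and Padi1, which converts arginine in proteins to citrulline, fell by 8.41 and 8.05, from at least 94.4 and 122 CPM to at most 0.784 and 0.862 CPM. Cxcl15, a chemokine of epithelia, was at 58.9 and 57.1 CPM in the cells and at 0 in tumours 2 and 3. Kank4 and Srgap3, which act on the actin skeleton, fell by 7.28 and 5.89. In total 17 genes expressed in the cells were under 0.5 CPM in all 4 tumours. They included Syt13, a synaptotagmin, Trdc, annotated as a T cell receptor constant gene, Lgr6, a receptor of stem cells in skin, Lgi3, Adra1b, an adrenergic receptor, and Tigit, an immune receptor. Trdc and Tigit, textbook genes of lymphocytes, were thus at 40.3 and 21.7 CPM in the first library of the cultured line and at most 0.418 CPM in its tumours.

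**Figure D4:**
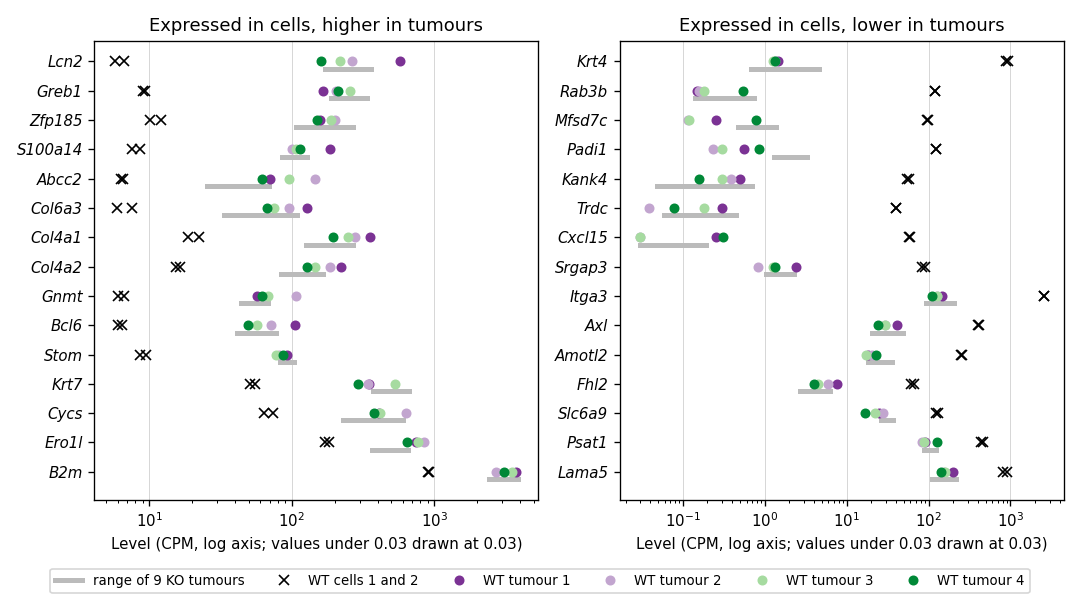
Level (CPM, log axis) of 15 genes expressed in WT cells that were higher in WT tumours (left) and 15 that were lower (right): crosses are the 2 cell libraries, circles WT tumours 1 to 4, and grey bars the range of the 9 KO tumours. Krt4 and Rab3b fall to under 2 CPM. No circle overlaps the crosses of its gene, which was a condition for naming the largest rises and falls. Of all 9346 genes expressed in the cells, 2388 lay wholly above and 3846 wholly below the cells.

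Of the program lists, those of cytoskeletal and YAP-dependent genes had the lowest medians. In the SRF and cytoskeleton list, 17 of 21 members expressed in the cells fell, with a median log2 change of -1.26, against -0.10 over all expressed genes, of which 29.3% fell. Flna, an actin cross-linker, went from 1229 and 1276 CPM to 340, 310, 295 and 294 CPM, 4.05-fold lower by the means (edgeR adjusted p = 2.69e-05). Vcl, which anchors actin at focal adhesions, Actn1 and Fhl2 fell by 1.63, 1.72 and 3.54. Tpm1 and Tpm2, tropomyosins that skeletal muscle also makes, did not pass: Tpm2 was at 28.9 and 25.9 CPM in the cells and at 146, 6.56, 10.4 and 3.92 CPM in the tumours. Without tumour 1, which held the muscle markers, the log2 change of Tpm2 was -1.92 and 20 of 21 members fell.

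YAP and TEAD drive genes of spreading and growth. Of 18 target genes expressed in the cells 14 fell, against 29.3% of all expressed genes, with a median of -1.34, and 11 and 10 did without WT cells replicate 1 and 2. Amotl2, a junction protein that restrains YAP, went from 246 and 255 CPM to 18.3, 20.5, 17.3 and 22.8 CPM, a log2 change of -3.65 ± 0.14 (SE; edgeR adjusted p = 1.24e-05). Axl, a receptor tyrosine kinase, went from 402 and 414 CPM to 41.8, 29.5, 29.1 and 24.4 CPM, a log2 change of -3.70 ± 0.18. Every tumour lay more than 10-fold below both cell libraries, except for Axl in tumour 1. Ctgf, the best known target, went from 446 and 424 CPM to 75.3, 57.0, 58.0 and 25.3 CPM. Cyr61 went from 169 and 168 CPM to 114, 34.0, 34.7 and 30.5 CPM and did not pass when either cell library or any of tumours 2 to 4 was left out. Ctgf and Cyr61 were chosen after their values were seen. Igfbp3, on the same list, was silent in culture. Of 12 basement membrane and adhesion genes expressed in the cells 6 fell and 2 rose, against 29.3% and 18.0% of all expressed genes. Among the falls was Itga3, an integrin that binds laminin (ENSMUSG00000001507, chromosome 11, 95044474 to 95076801 in GRCm38). Itga3 went from 2541 and 2542 CPM to 145, 128, 126 and 110 CPM, a log2 change of -4.30 ± 0.13. Its partner in basement membranes, the laminin chain Lama5, fell by 2.39.

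Promoters of the 2 YAP and TEAD targets with the smallest p that held the TEAD core GGAATG on either strand are shown to place it relative to the gene start. They are RefSeq windows of GRCm38.p6 from 250 bases before to 50 after the start, with the core in capitals. Amotl2 is chr9:102717554-102717853 on the plus strand and Axl is chr7:25788684-25788983 on the minus strand.
Amotl2: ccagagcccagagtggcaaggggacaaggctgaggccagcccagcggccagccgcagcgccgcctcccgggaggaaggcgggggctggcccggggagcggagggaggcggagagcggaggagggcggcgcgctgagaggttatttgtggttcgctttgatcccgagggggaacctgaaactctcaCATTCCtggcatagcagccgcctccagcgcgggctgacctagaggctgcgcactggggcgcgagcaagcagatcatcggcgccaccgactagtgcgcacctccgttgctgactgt
Axl: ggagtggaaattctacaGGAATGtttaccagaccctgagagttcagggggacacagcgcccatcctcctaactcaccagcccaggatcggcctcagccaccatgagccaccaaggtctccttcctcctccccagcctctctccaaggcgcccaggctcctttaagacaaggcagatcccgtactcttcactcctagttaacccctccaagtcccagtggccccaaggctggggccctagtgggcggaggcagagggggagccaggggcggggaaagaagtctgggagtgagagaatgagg
The core was in 7 of the 15 listed genes that matched a promoter (46.7%), against 16.6% of all 27025 genes with one. A match describes letters, not a bound site.

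ATF4 target genes, which serve amino acid synthesis, uptake and tRNA charging, fell in the majority. Of 27 expressed in the cells 20 fell and 1 rose, against 29.3% and 18.0% of all expressed genes, with a median of -0.93. Slc6a9, a glycine transporter, went from 129 and 122 CPM to 24.8, 27.9, 22.3 and 16.8 CPM, a log2 change of -2.44 ± 0.17 (SE; edgeR adjusted p = 8.94e-05). Slc7a5, a transporter of large amino acids, Cars, a cysteine tRNA ligase, and Atf5, a related factor, fell by 1.69, 1.51 and 1.51. Psat1 and Phgdh, enzymes of serine synthesis chosen after their values were seen, fell by 2.19 and 1.18. Pycr1, which makes proline, fell by 2.33, so that transport and synthesis genes both were among the falls. The expressed member that rose was Mthfd2, a mitochondrial folate enzyme, by 0.94. Over all 32 tested members 4 rose and 21 fell, against 29.8% and 21.3% of all tested genes. Ddit3, a stress factor under ATF4 control, lay between the thresholds on plain CPM and so outside the 27. Scaled by TMM it was at 6.28 and 5.09 CPM in the cells and at 54.8, 18.7, 14.5 and 12.5 CPM in the tumours. Its rise of 2.14 did not pass when either cell library was left out.

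The amino acid response element core, TGATGNAA on either strand, was in 10 of 26 matched ATF4 target genes (38.5%) and in 4.51% of all genes. Pck2 (chr14:55540016-55540315, plus strand) and Trib3 (chr2:152344011-152344310, minus strand) are the pair with the smallest p that hold it, in windows of the same build and length, with the core in capitals. Pck2, a mitochondrial gluconeogenic enzyme, fell by 2.09 and Trib3, a pseudokinase, by 2.02.
Pck2: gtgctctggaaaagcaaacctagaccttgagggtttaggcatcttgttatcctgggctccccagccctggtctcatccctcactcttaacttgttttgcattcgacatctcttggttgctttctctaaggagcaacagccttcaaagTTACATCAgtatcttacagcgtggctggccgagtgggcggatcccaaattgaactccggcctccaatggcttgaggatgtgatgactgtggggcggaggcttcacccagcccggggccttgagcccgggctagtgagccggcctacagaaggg
Trib3: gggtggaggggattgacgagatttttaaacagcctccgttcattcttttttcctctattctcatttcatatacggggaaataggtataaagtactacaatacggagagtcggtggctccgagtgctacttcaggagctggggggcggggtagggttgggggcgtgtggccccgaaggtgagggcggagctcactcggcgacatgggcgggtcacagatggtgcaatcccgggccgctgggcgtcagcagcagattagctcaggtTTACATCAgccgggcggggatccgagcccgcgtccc

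Genes of ER folding went the other way from ATF4 targets. Of 13 ATF6 target genes expressed in the cells 8 rose, against 18.0% of all expressed genes, with a median of 0.80. Hsp90b1, an ER chaperone, went from 1158 and 1138 CPM to 2358, 2350, 2139 and 2199 CPM, a log2 change of 0.99 ± 0.12 (SE; edgeR adjusted p = 0.000677). Ero1lb, an oxidase for disulfide bonds, Sdf2l1 and Herpud1 rose by 1.84, 1.75 and 1.27. Hspa5, the main ER chaperone, was at 1404 and 1350 CPM in the cells and at 2380, 1866, 1663 and 1512 CPM in the tumours and did not pass (edgeR adjusted p = 0.079). XBP1s targets were mixed, with 13 of 37 higher and 4 lower, against 18.0% and 29.3% of all expressed genes, and with 5 and 1 when either cell library was left out. Manf, a secreted ER protein, rose by 0.98, and Sec24d, a vesicle coat protein, was lower, at 151 and 157 CPM in the cells and 70.9 to 86.7 CPM in the tumours. Ern1 itself went from 118 and 133 CPM to 70.1, 84.0, 75.9 and 64.6 CPM, a fall of 0.75 that did not pass without WT cells replicate 2. Xbp1 did not pass (edgeR adjusted p = 0.0813).

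Respiratory chain genes were higher in part. Of 26 oxidative phosphorylation genes 13 rose, where 18.0% of all expressed genes did, with a median of 0.41, and without WT cells replicate 1 or 2 the count was 8 or 7. Cycs, cytochrome c, went from 74.4 and 63.9 CPM to 407, 630, 417 and 379 CPM, a log2 change of 2.75 ± 0.25 (SE; edgeR adjusted p = 0.000248). Ndufb5 and Cox7c, subunits of complexes I and IV, rose by 1.47 and 1.42. Glycolytic genes did not follow: Pgk1 and Pfkl, enzymes of glycolysis, fell by 0.91 and 0.82, and Slc2a1, the glucose transporter GLUT1, was at 129 and 142 CPM in the cells and at 187, 123, 105 and 109 CPM in the tumours. Of 23 hypoxia and glycolysis genes expressed in the cells 2 rose and 5 fell, where 18.0% and 29.3% of all expressed genes did, and without tumour 1 these counts were 3 and 8. Ero1l, an ER oxidase induced by hypoxia, rose, from 171 and 183 CPM to 744, 841, 772 and 647 CPM. Vegfa, the vessel growth factor, was at 40.9 and 43.9 CPM and at 76.9, 54.6, 46.5 and 35.6 CPM, with tumours on both sides of the cells.

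Lipid synthesis genes were examined as 2 lists. Of 23 cholesterol synthesis genes expressed in the cells 9 fell and 4 rose, shares near the 29.3% and 18.0% of all expressed genes, and with either cell library left out 5 fell and 2 rose. Srebf2, the factor that induces the pathway, fell by 1.28. Nsdhl, an enzyme of the pathway, rose by 1.23. In fatty acid synthesis Fads1, a desaturase, and Srebf1 fell by 1.39 and 1.03. Srebf1 was at 122 and 123 CPM in the cells and within 57.6 to 60.6 CPM in all 4 tumours.

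Of 28 cell cycle genes expressed in the cells 7 rose and 4 fell, against 18.0% and 29.3% of all expressed genes, and with either cell library left out 1 rose and 0 fell. Cdc45, a replication factor, went from 10.8 and 9.71 CPM to 26.2, 25.3, 26.4 and 26.2 CPM, a log2 change of 1.36 ± 0.13 (SE; edgeR adjusted p = 0.000273). Mki67, a marker of cycling cells, was at 39.8 and 45.5 CPM and at 81.6, 64.7, 120.1 and 115 CPM, a rise of 1.18 that was lost with either cell library left out. Myc was at 485 and 504 CPM in the cells and at 309, 397, 392 and 461 CPM in the tumours and did not pass (edgeR adjusted p = 0.174); the transgene was not read apart from it. Among 26 cytosolic ribosomal protein genes 5 rose, a share near the 18.0% of all expressed genes, and 2 fell.

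**Figure D5:**
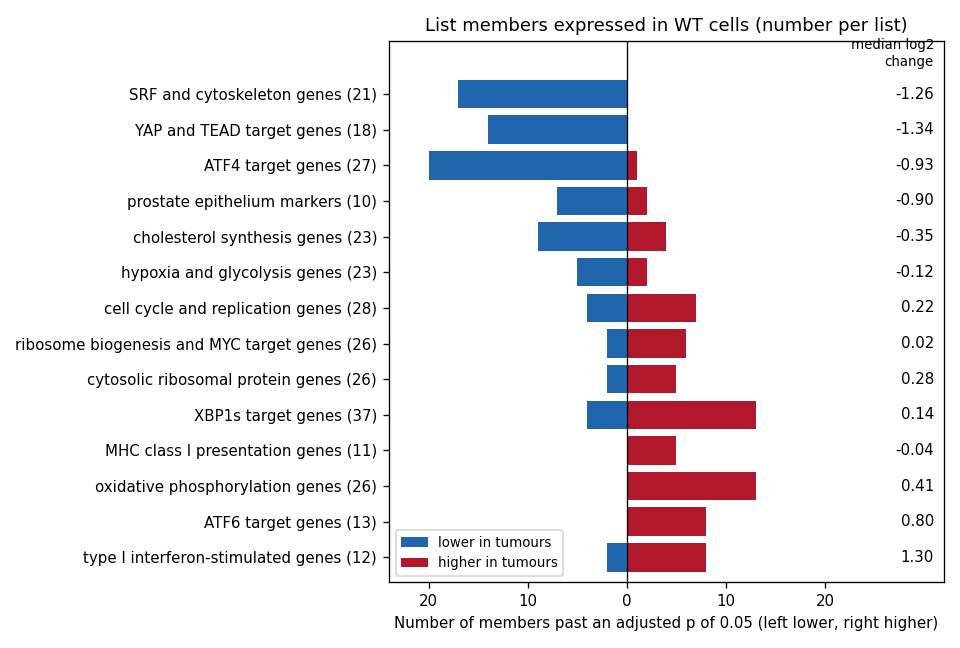
Number of list members expressed in WT cells that were lower (left, blue) or higher (right, red) in WT tumours at an adjusted p under 0.05, with the median log2 change of all such members at the right. SRF, YAP and ATF4 lists lie to the left and the ATF6 and oxidative phosphorylation lists to the right; the medians of the hypoxia list (-0.12) and the MHC class I list (-0.04) turn to 0.01 and 0.09 when libraries are scaled over genes expressed in the cells.

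Most type I interferon-stimulated genes were higher in the tumours. On the list of type I interferon targets 31 of 36 rose and 2 fell, against 29.8% and 21.3% of all tested genes. Their median was 3.92 over all strata. Of the 36, 11 were silent in culture, where the rule fixes the direction, and 13 lay between the thresholds. Only 12 were expressed in the cells. Of these 8 rose and 2 fell, against 18.0% and 29.3% of all expressed genes, with a median of 1.30. Irf7, which amplifies the response, went from 0.797 and 0.892 CPM to 37.7, 23.7, 33.2 and 29.8 CPM, a log2 change of 5.21 ± 0.27 (SE; edgeR adjusted p = 2.79e-05). Usp18 and Isg15, which remove and provide the tag ISG15, rose by 4.26 and 1.91. The 2 that fell were Ifit2 and Stat2, by 1.55 and 0.82, Stat2 only with both cell libraries. Ifit2, Stat2 and Isg15 were chosen after their values were seen. Of 26 tested interferon-gamma-induced genes 21 rose and 4 fell, but 9 of the 28 listed were silent in culture. Of the 6 expressed in the cells 2 rose and 3 fell, against 18.0% and 29.3% of all expressed genes. Of 12 leukocyte markers 11 were highest in tumour 1 and lowest in tumour 4. That order held for 8 of the 36 type I interferon-stimulated genes, a share near the 20.7% of all tested genes. The part of leukocytes in the rises of interferon-stimulated genes was not tested.

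Antigen presentation genes were followed from the class I chains on. B2m, the light chain of MHC class I, went from 918 and 904 CPM to 3761, 2717, 3528 and 3101 CPM, a log2 change of 1.86 ± 0.17 (SE; edgeR adjusted p = 0.000269). H2-K1, a heavy chain, went from 80.5 and 83.6 CPM to 322, 261, 394 and 263 CPM, and Nlrc5, which induces class I genes, from at most 0.210 CPM to between 8.67 and 13.2 CPM. Of the genes that supply and load peptides, Tap2 and Tapbp were at log2 changes of -0.35 and -0.18 and did not pass, while Pdia3, Calr and Psme2 rose by 1.12, 0.80 and 0.73. These 5 were chosen after their values were seen. In all, 11 of 20 class I genes rose, against 29.8% of all tested genes. Of the 11 expressed in the cells 5 rose, against 18.0% of all expressed genes. Of those 11, 4 fell when tumour 1 was left out. Of class II genes, H2-Aa had 0 counts in the cells and was at 75.9, 38.9, 43.5 and 14.3 CPM in WT tumours 1 to 4. In all, 9 of the 12 class II genes were highest in tumour 1 and lowest in tumour 4. Most macrophage, leukocyte and fibroblast markers had that order too, and which cells made the class II RNA was not tested.

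The interferon-stimulated response element core, here GAAA and GAAA parted by any 2 bases on either strand, was in 14 of 25 matched genes of the type I list (56.0%) and in 3.99% of all genes. Oas1a, a sensor enzyme for double-stranded RNA (chr5:120907476-120907775, minus strand), and Rsad2, the antiviral protein viperin (chr12:26456403-26456702, minus strand), had the smallest p among them. Both were silent in culture, where the rule fixes the direction, so p served only to pick them for print. Oas1a went from 0.0469 and 0.0525 CPM to 24.2, 12.1, 18.2 and 15.8 CPM, and Rsad2 from 0.0469 and 0 CPM to 8.70, 11.4, 11.3 and 14.02 CPM.
Oas1a: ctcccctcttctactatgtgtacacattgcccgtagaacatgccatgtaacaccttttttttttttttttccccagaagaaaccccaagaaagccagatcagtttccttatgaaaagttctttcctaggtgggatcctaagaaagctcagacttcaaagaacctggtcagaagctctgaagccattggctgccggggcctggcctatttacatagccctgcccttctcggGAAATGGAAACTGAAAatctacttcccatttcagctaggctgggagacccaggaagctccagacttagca
Rsad2: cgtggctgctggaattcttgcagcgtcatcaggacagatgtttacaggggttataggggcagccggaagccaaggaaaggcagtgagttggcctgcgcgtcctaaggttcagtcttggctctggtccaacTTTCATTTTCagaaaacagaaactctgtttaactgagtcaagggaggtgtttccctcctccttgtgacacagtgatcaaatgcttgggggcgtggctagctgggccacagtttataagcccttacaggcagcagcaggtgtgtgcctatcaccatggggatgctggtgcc
The capitals mark the core, with 2 overlapping matches before Oas1a and 1 match, read on the other strand, before Rsad2.

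The comparison was repeated in the KO lines, whose cells and tumours are other libraries than those of WT. In KO1, KO2 and KO3, 58.8%, 60.9% and 58.1% of 15173 genes passed between tumours and cells, in a fit of all 21 libraries. Of 4172 genes higher in WT tumours and tested there, 3290 were also called higher in all 3 lines, and of 2982 lower ones 2209 were called lower in all 3. Among genes expressed in WT cells these counts were 1171 of 1683 and 2057 of 2743. YAP and TEAD targets fell in each line, 16 of 18, with medians of -1.49, -1.77 and -1.62, and SRF genes with medians of -1.21, -1.46 and -1.39. ATF4 targets had medians of -1.90, -1.99 and -0.93 in KO1 to KO3, and ATF6 targets of 1.26, 1.37 and 1.69. No share of falls or median over all expressed genes is given for the KO lines, so these list values are a description. Itga3 and Krt4 fell in every line, Itga3 by 3.92, 4.17 and 3.73.

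The change from cells to tumours differed between WT and the mean of the KO lines for 599 of 15173 genes (3.95%), 113 with the WT change above and 486 with it below, and 2278 at an unadjusted p under 0.05. Stra6, a retinol transporter, fell in WT, from 97.8 and 97.7 CPM to 5.48, 10.6, 9.19 and 14.02 CPM, and rose in KO, from at most 3.86 CPM to between 4.65 and 62.0 CPM; the difference was -7.46 on the log2 scale (edgeR adjusted p = 2.3e-08). Ass1, which makes argininosuccinate, rose from 4.36 and 3.62 CPM to between 89.6 and 128 CPM in WT and from at most 0.229 CPM to between 108 and 179 CPM in KO. Tumour levels of Ass1 were thus similar in range while the cell levels lay apart. Mga, a partner of MAX, was at 16.3 and 16.7 CPM in WT cells and at 19.7, 13.3, 19.4 and 19.8 CPM in WT tumours and did not pass, but had 0 counts in all 6 KO cell libraries and 2.82 to 12.2 CPM in KO tumours. Col4a1 differed likewise, by -3.70, from 0.401 to 6.13 CPM in KO cells to 125 to 267 CPM in KO tumours. The WT change was above the KO change for Palld, an actin organiser, by 1.57, for Sccpdh by 0.88 and for Arhgef2, a microtubule-bound exchange factor, by 0.85.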

How the data were processed

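Polyadenylated RNA was sequenced as stranded paired reads of 50 bp, per the labels and the series' design. The authors deposited estimated counts per gene, some not whole; the submitters' processing notes name Trim Galore 0.6.7, STAR, Salmon 1.5.2 and GRCm38, with settings not given in these sources. Here the counts were rounded, low genes were left out with filterByExpr, and the 6 WT libraries were scaled by TMM and compared by the quasi-likelihood test of edgeR 4.0.16 (R 4.3.3). P-values were adjusted by Benjamini-Hochberg over all tested genes, with a threshold of 0.05, and every adjusted p, log2 change and SE is from that fit. KO values and WT minus KO differences come from 1 fit of the 21 libraries. Printed levels are CPM scaled by TMM over 21 libraries, while plain CPM set the strata. No fitted fold is printed for a gene with 0 counts in both cell libraries. Positions and biotypes were taken from GENCODE M21 and promoters from RefSeq.

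The members and the 47 gene lists were chosen with earlier results of these data known. Genes were named by rule, leaving out predicted and clone names: the 15 highest silent genes per kilobase, 3 genes peculiar to each tumour, the 15 largest rises and falls among expressed genes, the 10 highest of those nearly lost, 5 each way between the thresholds, up to 4 members a list with the smallest p, 5 each way that differ from KO, and 26 genes always named, some of which are not reported here; other names were chosen after their values were seen. The largest rises and falls among expressed genes also had to pass the threshold with no overlap of tumour and cell libraries. Counts of genes with close paralogs (H2 genes, lipocalins, keratins) are uncertain. No 2 replicates agreed within sampling noise (lowest chi-square per degree of freedom 8.39). In data simulated on the 14031 genes of this comparison, 100 genes were changed at each size. Of log2 changes of 1, 27% were found and of those of 2, 82%, and 7.63% of calls were false. Far more genes were called in the real data, so these rates need not hold there. Other settings were RLE scaling, DESeq2 1.42.0, voom of limma 3.58.1, every gene kept, the deposited table scaled by length, 21 libraries in the fit, tumours 3 and 4 summed, a replicate block, TMM over expressed genes, Yam1 and Rn18s-rs5 removed, each library left out, and other strata thresholds. Figures were drawn with matplotlib 3.10.9.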

Additional observations from a re-analysis of the deposited data

Results flagged for a closer look

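Among the 231 genes checked for a WT tumour far from the other 3, 14 stood out, as did a sum and a share. Chance alone flags about 1 in 20 groups of this size, and some genes, such as Tex101, were picked because 1 tumour was high. WT tumour 1 was far above the others for Fabp4, an adipocyte lipid carrier (622 CPM), Fgg (433 CPM), Dusp6 (26.3 CPM), Clec4e, a myeloid receptor (10.8 CPM), Ddx3y (24.0 CPM) and the summed Y-linked genes (46.1 CPM). WT tumour 2 was above the others for Dnajc3, an ER cochaperone (300.05 CPM), Cyp2b10 (334 CPM), Cym (97.8 CPM), Igfbp3 (93.6 CPM), Tex101 (13.3 CPM) and Msmb, a prostate secretory protein (6.13 CPM). It was below them for Mga (13.3 CPM). Igfbp3 was at 65.6, 68.9 and 66.6 CPM in WT tumours 1, 3 and 4, so it stood out against a narrow spread. WT tumour 3 was far above for Yy2 (3.16 CPM) and Fmn1 (1.49 CPM). WT tumour 4 stood apart in the share of counts in Yam1 and Rn18s-rs5, at 24.0%.

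For 35 of 259 named genes the log2 change from cells to tumours differed between WT and the mean of the KO lines, by edgeR in the fit of all 21 libraries. Over all genes it did for 599 of 15173 (3.95%), and since some named genes were picked for this difference, their count is no measure of it. Differences are WT minus KO. In ER folding and secretion they were -1.27 for Manf, -1.08 for Hsp90b1, -1.04 for Ero1lb, -0.96 for Hspa5 and -0.80 for Sec24d, all with lower levels in KO cells than in WT cells. Ern1 itself, the targeted gene, was at 0.53 and Ddit3 at 2.59. In matrix genes the difference was -3.70 for Col4a1, -3.19 for Col4a2 and -6.19 for Nid2, a linker of basement membranes. In metabolism it was -7.22 for Ass1, -7.46 for Stra6, -7.12 for Akr1c18, -2.27 for Cyp2b10, -0.85 for Scd2, -0.68 for Dhcr7 and -0.46 for Fads1. Mga stood at -9.78, a fitted value against 0 counts in KO cells and no bound. Among membrane and epithelial genes it was -1.71 for Anpep, -1.72 for Zfp750, -1.59 for Krt19, -2.39 for Cd52, -1.54 for Mfsd7c, -2.28 for Padi1, -0.85 for Greb1 and 1.02 for Ovol1. Lysosomal Grn was at -0.81 and Sqstm1, an autophagy receptor, at 0.72. Positive differences were also found for Snhg5 (1.62), Palld (1.57), Sccpdh (0.88), Etl4 (0.85), Arhgef2 (0.85), Cars (0.68) and Cdc45 (0.66).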

How the results depend on the processing

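Leaving out 1 library at a time gave 2401 to 4672 higher and 1448 to 3443 lower genes over all genes, and 701 to 2203 higher and 1359 to 3090 lower among those expressed in the cells, with the fewest when 1 cell library was left; with 1 cell library the spread comes from the tumours alone. Limma voom called 2575 expressed genes higher, and a minimum of 20 CPM in both cell libraries left 1070, since fewer genes qualify. Tpm2, with a log2 change of 0.59 that did not pass, was at -1.44 with limma voom, at -1.71 without both tumours 1 and 4 (chosen after seeing the data), and between -1.92 and 1.01 with 1 library left out at a time; tumour 1 held the muscle markers. Scaling over genes expressed in the cells shifted the median of all genes by 0.13 and gave 4868 higher and 2395 lower genes, 67.0% of calls higher against 58.3%. It turned the medians of the hypoxia (0.01), MHC class I (0.09), NRF2 (0.04) and lysosome (0.07) lists positive.

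Replicate numbers did not pair the libraries: the deviations of same-numbered cells and tumours correlated at 0.03 and -0.05. With the replicate block 4027 genes were higher and 2968 lower, and 1506 and 2770 among expressed genes. Of 302 genes followed, 36 and 41 lost their call without WT cells replicate 1 and 2, and of the 286, 296, 289 and 301 still tested without tumours 1 to 4, 0, 5, 7 and 3 did; Tpm2 changed sign without tumour 1. All 21 libraries in 1 fit gave 5299 higher and 3770 lower. The number of silent genes present in all WT tumours ranged from 539 to 996 over its alternatives. With 2 cell libraries, changes of 1 on the log2 scale were often missed in simulated data, where far fewer genes changed than were called here.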
